A study of Homo sapiens with 12 samples.

Results

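Gene expression of the human monocytic leukaemia line THP-1 was compared between cells kept at the fever-like temperature of 40 °C and cells kept at 37 °C, on 3 arrays each, which are 6 of the 12 arrays of the series. Both groups had first been differentiated with the phorbol ester PMA at 100 ng/ml for 48 hours, which turns THP-1 cells into adherent, macrophage-like cells. Neither group carries a transgene, an inhibitor or any agent other than the PMA, per the labels. The labels name harvests after 2, 8 and 24 hours at 40 °C and do not say which of them these arrays hold, nor when the 37 °C cells were taken. THP-1 descends from a single leukaemia, and no label says that the 3 arrays of a group stem from different cultures, and p-values therefore speak only for the scatter among these arrays, possibly a technical one. The arrays are Affymetrix PrimeView arrays, on which a probe set reads the transcript of a gene near its 3′ end, and values are log2 expression levels as deposited, so a difference of 1 is a 2-fold change. For each of 18132 genes the brightest probe set with a single gene symbol was used, and the 13876 genes whose mean reached a log2 level of 4.33 were tested with limma. A gene is called higher or lower below where its Benjamini-Hochberg adjusted p over all these genes is under 0.05.

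Cells meet heat with an old and conserved response. Heat shock factor 1 (HSF1) is held inactive by chaperones, is released when unfolded proteins occupy them, and binds heat shock elements, inverted repeats of GAA, in the promoters of chaperone genes. Mild cooling does the opposite to a small set of RNA-binding proteins, RBM3 and CIRBP, which are abundant in the cold and scarce in the warmth. In macrophages, which take part in the fever that accompanies infection, temperature is also known to bear on cytokine production, on surface receptors and on metabolism.

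The labelled cell type was checked against its markers. Of 11 macrophage markers tested, TYROBP, an adaptor of myeloid receptors, read 13.01 to 13.08 at 37 °C. CD14, the endotoxin co-receptor, was also above the filter. CD163, on the same list, was faint at 37 °C and read below the highest markers of other cells given next. At 40 °C 6 of the 11 were higher, CD163 and CD14 among them, and 4 lower, with differences from 0.97 to −0.91. The granule gene LYZ was among the lower markers, so the list moved both ways. Of the markers of other cells, 4 erythroid, 5 lymphocyte and 5 fibroblast and epithelial genes also reached the filter; their highest mean levels at 37 °C were 6.33 (GATA1), 6.55 (NKG7) and 6.19 (PDGFRB). Of these 3 groups PDGFRB alone was called (−0.16), a call lost without the first or the third 37 °C array or the first 40 °C array (adjusted p 0.0588 to 0.0717, limma). Array medians lay between 5.72 and 5.75. Arrays of 1 group correlated across probe sets at r = 0.9977 to 0.9984, and arrays of different temperature at 0.9925 to 0.9935. Control probe sets differed between the groups. The poly-A spikes, bacterial RNAs added before labelling, averaged 7.87 ± 0.03 at 37 °C and 7.96 ± 0.04 at 40 °C (SD, n = 3 each). GAPDH controls averaged 13.33 ± 0.01 and 13.22 ± 0.05, and 28S rRNA controls 8.74 ± 0.01 and 8.58 ± 0.04. These sets did not overlap between the groups. The 18S rRNA controls differed most (−0.28), at 11.07 ± 0.17 and 10.79 ± 0.11, with overlap. ACTB controls (−0.07) and hybridization controls (0.08) overlapped too. The part of these controls in the results was not tested. The difference between 3′ and 5′ probe sets, which grows as RNA breaks down, overlapped between the groups for GAPDH (0.38 ± 0.02 and 0.44 ± 0.10) and ACTB (1.55 ± 0.04 and 1.58 ± 0.22). A lower signal can mean fewer cells that express a gene or less RNA per cell, which these arrays cannot tell apart.

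Between the 2 groups of arrays many genes differed by a little and few genes by much. The labels leave the harvest times unclear, and whether temperature alone made these differences was not tested. At 40 °C 2996 genes were higher (21.6% of those tested) and 2524 lower (18.2%), 39.8% in all. The median size of a called difference was 0.31, and 4753 of the called genes (86.1%) differed by less than 1.5-fold. Only 67 genes were at least 2-fold higher (0.483%) and 77 at least 2-fold lower (0.555%). The 2 groups of arrays did not overlap for 6917 genes (49.8%), 1434 of which were not called. The arrays were deposited with nearly equal medians, which holds the median difference of all genes near 0 (0.01), so a change is one relative to the bulk of genes. Every share given below is to be read against 21.6% higher and 18.2% lower. Read probe set by probe set rather than gene by gene, 12021 of 31691 were called (37.9%), 20% higher and 17.9% lower. Without each array in turn, 4067 of the 5520 called genes kept their call and direction under all 6 omissions.

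**Figure D1:**
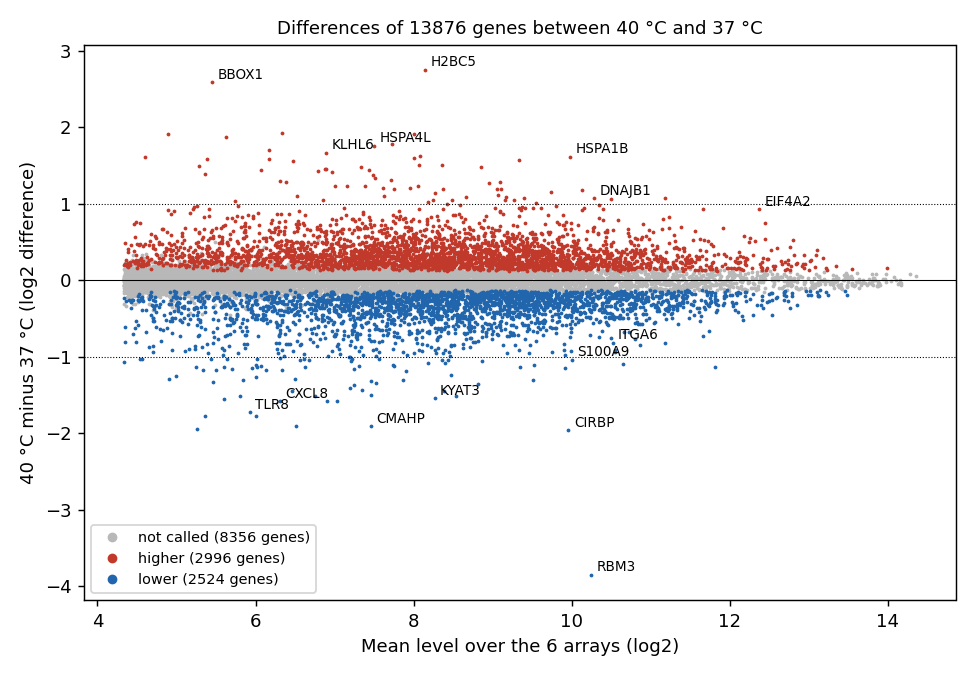
Each point is 1 of the 13876 genes, with its mean log2 level over the 6 arrays on the horizontal axis and the log2 difference between 40 °C and 37 °C on the vertical axis; red and blue points were called higher (2996) and lower (2524), and dotted lines mark a 2-fold difference. RBM3 lies below every other point, and most called genes lie within the dotted lines.

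With the brightest probe set of each gene, the deepest falls were in RBM3 and CIRBP, the 2 genes abundant in the cold. RBM3, which binds RNA and promotes translation in cooled cells, read 12.13, 12.11 and 12.27 at 37 °C and 8.45, 8.20 and 8.30 at 40 °C. It was 14.5-fold lower (log2 difference −3.85, SE 0.075, adjusted p = 4.5e-07). CIRBP, its relative, read 10.93, 10.95 and 10.94 against 9.04, 8.94 and 8.96, and was 3.89-fold lower (adjusted p = 9.5e-07). The 3 CIRBP probe sets were all called lower. For RBM3 the other of 2 probe sets was not called, and the mean of both differed by −1.96, again a called fall.

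The heat shock element is the sequence to which HSF1 binds, and it is shown here because several of the chaperone genes described next carry it. Promoters of 11226 tested genes, from 250 bases before to 50 bases after each of 16238 starts, were taken from RefSeq (GRCh38.p14) and searched on both strands. A pair of inverted units was spelled GAANNTTC or TTCNNGAA, and the 3-unit element adds 1 more inverted unit after the same gap of NN, a choice made after the data had been seen. The 3-unit element lies in 59 of these genes (0.526%). Among these 59, 19 were higher (32.2%) and 3 lower (5.08%), with a median difference of 0.09. Among the 11167 genes without it, 22.3% were higher and 18.8% lower, with a median of 0.01. One of the 3 lower genes with the element was MS4A6A (−1.52), among the largest decreases. The windows of 6 chaperone genes with the element, taken from those that were higher, follow, 5′ to 3′ on the strand of the gene, with the matching bases in capitals.
CHORDC1: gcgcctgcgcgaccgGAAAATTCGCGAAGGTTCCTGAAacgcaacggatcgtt
SERPINH1: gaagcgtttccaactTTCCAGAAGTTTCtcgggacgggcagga
HSPA6: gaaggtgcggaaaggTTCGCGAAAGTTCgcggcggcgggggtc
HSP90AB1: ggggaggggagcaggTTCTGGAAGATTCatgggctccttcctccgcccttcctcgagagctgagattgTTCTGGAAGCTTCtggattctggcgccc
HSPD1: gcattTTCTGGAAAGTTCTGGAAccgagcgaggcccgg
DNAJA1: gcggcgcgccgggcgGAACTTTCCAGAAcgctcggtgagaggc
They lie at chr11:90223072-90223124 (minus strand), chr11:75562162-75562204 (plus), chr1:161524451-161524493 (plus), chr6:44247763-44247858 (plus), chr2:197500053-197500090 (minus) and chr9:33025261-33025303 (plus). The first element of CHORDC1 begins 60 bases before the start and that of HSPA6 74 bases before it. That of DNAJA1 lies 4 to 16 bases after the start. The same DNAJA1 stretch, read on the other strand, is also counted for a neighbouring gene among the 19 higher. The 6 genes were higher at 40 °C by 1.18, 0.97, 0.94, 0.34, 0.33 and 0.32 on the log2 scale, in the order printed, so the letters alone do not order the size. The looser pair, which the 3-unit element contains, was in 14.1% of all genes, in 21% of 315 genes called at least 1.5-fold higher and in 17.9% of 307 called at least 1.5-fold lower. Over genes of any size of change, 23.5% of the 1581 genes with it were higher and 19.5% lower, against 22.2% and 18.6% without, and the median was 0.01 in both. Windows of HSPA1B, HSPH1 and DNAJB1 do not hold the 3-unit letters, and all 3 genes were higher. Of 4 other elements searched, the E2F site TTTCGCGC was in 1.07% of genes: 35% of those 120 were higher and 20% lower, against 22.2% and 18.8% of the rest. The E-box CACGTG (12% of genes) went with 25.6% higher and 20.2% lower, against 21.9% and 18.6%. The metal response element TGCNCNC (69.8%) went with 22.9% and 18.8%, against 21% and 18.8%, and TCCCCGCC, a mild-cold response element (16.4%), with 22.7% and 20.5%, against 22.3% and 18.4%.

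The HSP70 machine was higher in its inducible members by far more than in its constitutive ones. HSP70 chaperones bind unfolded stretches of protein, and HSP110 proteins reload them with ATP. Of 11 such genes, 5 were higher and 1 lower, with a median difference of 0.17. HSPA1B, the classical heat-induced HSP70, read 9.14, 9.22 and 9.16 at 37 °C and 10.94, 10.65 and 10.77 at 40 °C, 3.06-fold higher (SE 0.074 on the log2 scale, adjusted p = 7.2e-06). Its near-identical copy may share this signal. HSPA4L, an HSP110 form, read 6.57, 6.70 and 6.61 against 8.37, 8.42 and 8.36, 3.38-fold higher (SE 0.050, adjusted p = 2.8e-06). HSPH1 rose from 11.14, 11.19 and 11.26 to 12.15, 12.06 and 12.20, and all 8 of its probe sets were called higher. HSPA6, a strictly stress-induced HSP70, was faint at 4.79, 4.53 and 4.91 and reached only 5.91, 5.55 and 5.58. HSPA14, a ribosome-associated member, went the other way (−0.43, SE 0.045), HSPA8, the constitutive form, rose by only 0.16, a call lost without the first 37 °C array (adjusted p = 0.0602, limma) or the third 40 °C array (0.0512), and HSPA4 (0.07) and HSPA13 (0.05) were not called.

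The partners that load and unload HSP70 also divided. Of 40 DNAJ proteins, which hand clients to HSP70, 9 were higher and 7 lower, with a median of 0.04, so as a family they stood near the background. DNAJB1 read 9.74, 9.79 and 9.71 at 37 °C and 10.89, 10.79 and 10.78 at 40 °C, and was 2.10-fold higher (SE 0.050, adjusted p = 7.3e-06). DNAJA4 (0.94), DNAJB9 (0.63), DNAJB4 (0.62) and the farnesylated DNAJA1 (0.32) rose too. Among 11 exchange factors, which release the client, 4 were higher and 2 lower. BAG3, which couples HSP70 to autophagy, read 10.00, 10.04 and 9.96 against 10.85, 10.74 and 10.79. BAG2 rose by 0.55, whereas BAG1, which couples HSP70 to the proteasome, read 9.93, 9.97 and 9.92 against 9.44, 9.28 and 9.26 and fell by 0.61, in all 4 of its probe sets.

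In the HSP90 group 12 of 15 genes were higher and 1 lower, the highest share of higher genes in any list with 5 or more tested, with a median of 0.34. HSP90 finishes the folding of kinases and steroid receptors with a cycle of co-chaperones. PPID, a prolyl isomerase of that cycle, read 8.44, 8.45 and 8.46 at 37 °C and 9.71, 9.73 and 9.77 at 40 °C (2.44-fold, SE 0.042, adjusted p = 3e-06). All 3 arrays at 40 °C lay far above all 3 at 37 °C. FKBP4, the isomerase that helps steroid receptors move to the nucleus, rose from 8.30, 8.34 and 8.31 to 9.72, 9.50 and 9.55. CHORDC1 rose from 9.59, 9.55 and 9.47 to 10.76, 10.60 and 10.79, and STIP1, which bridges HSP70 and HSP90, by 0.67. HSP90AB1 itself, already at 12.78, 12.75 and 12.80, reached 13.10, 13.14 and 13.10. The exception was FKBP5, the isomerase that holds steroid receptors in their inactive form, at 9.25, 9.27 and 9.20 against 8.71, 8.69 and 8.59 (1.49-fold lower, SE 0.050, adjusted p = 9.6e-05). FKBP4 and FKBP5 thus changed in opposite directions.

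Other folding compartments followed unevenly. Of 8 subunits of TRiC, the cytosolic chaperonin for actin and tubulin, 6 were higher and none lower, with a median of 0.24 and CCT3 highest at 0.50. Prefoldin, which delivers clients to TRiC, had none of 6 higher and 2 lower, PFDN1 (−0.36) and PFDN4 (−0.25). Of 14 mitochondrial chaperones and proteases 7 were higher and 2 lower. HSPE1, the lid of the mitochondrial chaperonin, read 8.26, 8.29 and 8.18 against 8.97, 9.03 and 9.01, and CLPB, a disaggregase, 7.82, 7.83 and 7.76 against 8.69, 8.48 and 8.44. CLPX, an unfoldase of the matrix, fell by 0.53 in all 5 of its probe sets. HSPB1, a small heat shock protein that holds unfolded clients, rose by 0.68, while HSPB7, another small heat shock protein, fell by 0.52. In the endoplasmic reticulum 6 of 20 folding genes were higher and 2 lower: HERPUD1, of the degradation machinery, was higher by 0.63 and XBP1, a regulator of the unfolded protein response, by 0.41. The major chaperones there, HSPA5 (0.04) and HSP90B1 (−0.06), were not called. SERPINH1, the collagen chaperone, rose from 9.36, 9.29 and 9.32 to 10.27, 10.34 and 10.27. HSF1 itself was 0.27 higher (SE 0.055, adjusted p = 0.0054).

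Of the genes of protein disposal, proteasome and autophagy genes were lower more often than higher, and ubiquitin-conjugating enzymes were not, with 6 of 26 higher and 5 lower and a median of −0.015. The 42 proteasome genes included 6 higher and 13 lower, with a median of −0.06. PSME4, an activator cap, fell by 0.46, PSMB10, an immunoproteasome subunit, by 0.38, and PSMD1 by 0.35. PSME3, a nuclear cap (0.51), and PSMB5, a catalytic subunit (0.37, in all 5 probe sets), were higher. Autophagy genes were higher in 4 of 25 and lower in 7: SQSTM1, the cargo receptor for ubiquitinated protein, read 11.04, 11.05 and 11.05 against 11.63, 11.48 and 11.57, while BECN1, of the initiating lipid kinase, read 11.18, 11.21 and 11.16 against 10.62, 10.60 and 10.61, lower in all 6 probe sets.

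**Figure D2:**
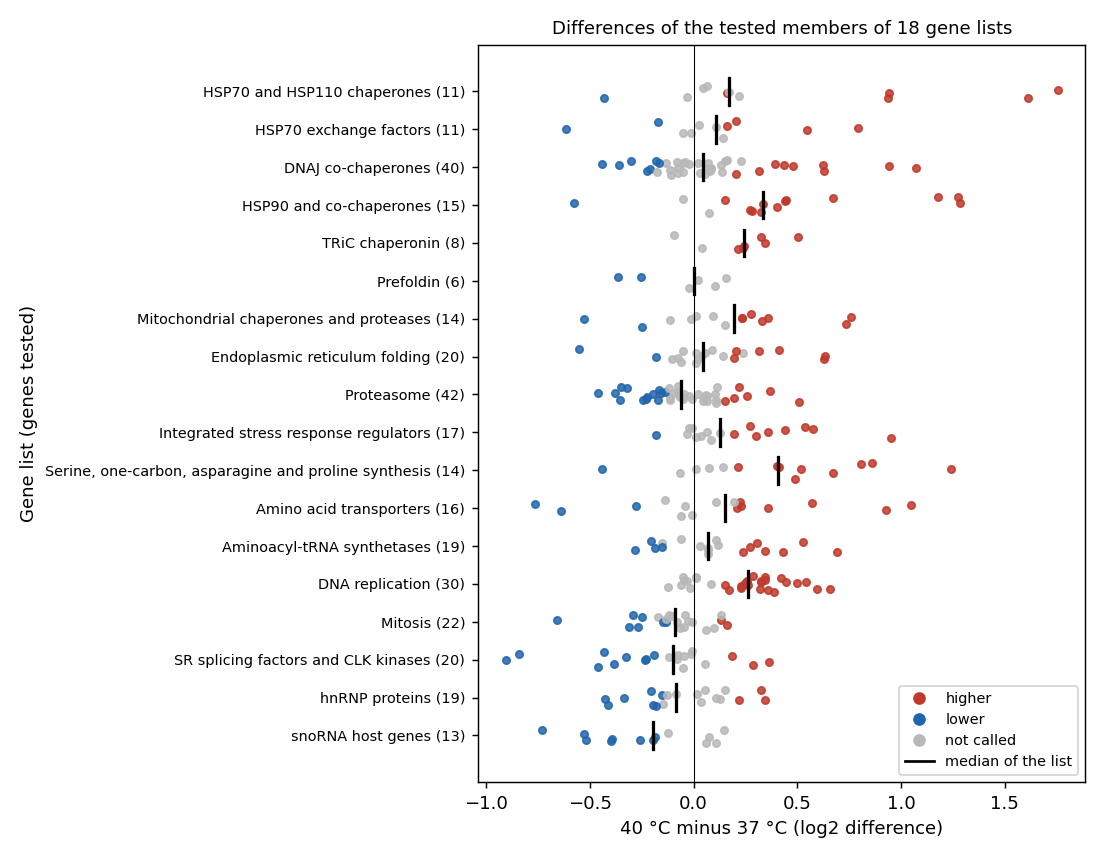
Each point is 1 tested gene of 1 of 18 lists, placed by its log2 difference between 40 °C and 37 °C (horizontal axis) and coloured by its call; black bars are list medians and numbers in parentheses are genes tested. The HSP90 group, TRiC, serine synthesis and DNA replication have medians of 0.24 to 0.41, while proteasome, mitosis, splicing and snoRNA host lists have medians below 0.

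Enzymes that make amino acids, and some carriers that import them, were higher as well. Of 14 genes of serine, one-carbon, asparagine and proline synthesis 9 were higher and 1 lower, and the median of 0.41 was the highest of the lists with at least 5 genes tested. PHGDH, the first enzyme of serine synthesis, read 7.37, 7.48 and 7.46 at 37 °C and 8.78, 8.65 and 8.60 at 40 °C (2.36-fold, SE 0.060, adjusted p = 8e-06). PSAT1, the next enzyme, rose by 0.86 in all 8 of its probe sets, and PSPH, the last, by 0.49. ASNS, which makes asparagine, read 7.61, 7.64 and 7.52 against 8.41, 8.40 and 8.38. MTHFD1L, of mitochondrial one-carbon metabolism, was the lower member (−0.44). Of 16 transporters 7 were higher and 3 lower: SLC1A3, a glutamate carrier, went from 7.93, 7.97 and 7.99 to 9.07, 8.96 and 9.01, and SLC7A8 from 7.64, 7.61 and 7.55 to 8.51, 8.55 and 8.53. In the other direction SLC7A11, the cystine carrier, read 9.13, 8.96 and 8.96 against 8.34, 8.40 and 8.39, and SLC38A1, a glutamine carrier, fell by 0.77 in all 5 of its probe sets. The aromatic amino acid carrier SLC16A10 was among the 20 largest increases, at 5.75, 5.69 and 5.63 against 7.23, 7.30 and 7.23. Of 19 aminoacyl-tRNA synthetases 7 were higher, among them AARS1 (0.69), MARS1 (0.53) and CARS1 (0.43), and 4 lower, with FARSB lowest (−0.28).

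Several of these genes are known targets of ATF4, the transcription factor of the integrated stress response. Its own transcript (0.08), that of the stress-induced factor DDIT3 (0.01) and that of TRIB3 (−0.03) were not called, while CEBPB (0.95), SESN2 (0.58), ATF3 (0.54) and DDIT4 (0.44) were higher; of 17 regulators 8 were higher and 1 lower. The element TGATGNAAN, to which ATF4 binds with a C/EBP partner, was in 3.03% of all promoters searched, in 16 of 315 genes at least 1.5-fold higher (5.08%) and in 6 of 307 genes at least 1.5-fold lower (1.95%). Over genes of any size of change, 21.2% of the 340 genes that have it were higher and 19.4% lower, against 22.4% and 18.7% of the rest. Lower genes hold the element as well, among them the carrier SLC38A1 (−0.77) and S100P (−1.52). The windows of 4 higher genes with the element follow, 5′ to 3′ on the strand of the gene (GRCh38.p14). The match on either strand is in capitals.
ASNS: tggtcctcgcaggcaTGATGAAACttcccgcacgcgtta
AARS1: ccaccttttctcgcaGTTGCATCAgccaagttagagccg
HERPUD1: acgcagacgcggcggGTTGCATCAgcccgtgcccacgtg
SLC1A3: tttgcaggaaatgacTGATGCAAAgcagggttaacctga
They lie at chr7:97872453-97872491 (minus strand), chr16:70289671-70289709 (minus), chr16:56931950-56931988 (plus) and chr5:36596353-36596391 (plus). AARS1 and HERPUD1 hold the same 9 letters, and their differences were 0.69 and 0.63. The ASNS match begins 68 bases before the start and that of SLC1A3 220 bases before it.

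Splicing factors and hnRNP proteins were lower more often than higher. Of 20 SR splicing factors and their CLK and SRPK kinases 3 were higher and 9 lower, with a median of −0.10. SRSF5 read 10.92, 11.04 and 11.03 at 37 °C and 10.08, 10.10 and 10.09 at 40 °C (1.87-fold lower, SE 0.049, adjusted p = 1.1e-05), lower in all 10 of its probe sets. SRSF8 (−0.46), SRSF2 (−0.43) and the kinase CLK4 (−0.38) fell, whereas SRSF4 rose by 0.36. Among 19 hnRNP proteins, which package nascent RNA, 3 were higher and 7 lower, with HNRNPDL at −0.43 and HNRNPLL at 0.35. Of 32 genes named RBM 9 were higher and 9 lower. Besides RBM3, the lowest were RBM41, of the minor spliceosome, at 7.42, 7.38 and 7.46 against 6.53, 6.38 and 6.37, and RBM43 (−0.65); RBM14 (0.62) and RBM10 (0.57) were the highest. The host genes of small nucleolar RNAs had 8 of 13 lower and none higher, with a median of −0.20: EPB41L4A-AS1 read 9.57, 9.62 and 9.54 against 8.81, 8.91 and 8.82, SNHG12 fell by 0.53, and TAF1D (−0.52) and ZFAS1 (−0.39) fell too.

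Protein synthesis genes differed from list to list. Cytosolic ribosomal proteins were nearly still, with 61 of 65 not called, 1 higher and 3 lower. Mitochondrial ribosomal proteins had 26 of 74 higher and 10 lower, with a median of 0.07; MRPL34 read 10.70, 10.75 and 10.69 against 11.38, 11.36 and 11.28, and MRPS25 rose by 0.53, although 1 of its 5 probe sets was called lower. Of 80 genes of oxidative phosphorylation, in the same organelle, 62 were not called, 8 were higher and 10 lower, with UQCRC2 (−0.43) and NDUFB8 (−0.42) the lowest. Of 58 translation factors 14 were higher and 10 lower.

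For 384 genes, probe sets were called in both directions, so the choice of probe set decides the sign there. Ordered by the smaller of their opposite differences, the first were GPATCH2, a protein with an RNA-binding G-patch, whose probe sets differed by 1.17 (SE 0.092) and −1.11 (SE 0.062), and EIF4A2, a helicase of translation initiation. The EIF4A2 probe set used for the gene rose from a mean of 11.91 to 12.84 (0.93, SE 0.053), while another fell from 9.14 to 8.02 (−1.12, SE 0.051), and the remaining probe set was also lower. LARP6, which binds collagen mRNA, had 0.92 and −0.83, and DRC8 0.97 and −0.79. ZCCHC2 had 1.28 and −0.75, CARS2, the mitochondrial cysteinyl-tRNA synthetase, 0.73 and −1.22, RECK, an inhibitor of metalloproteinases, 0.72 and −0.74, and ARHGEF39 0.69 and −0.82. Which transcript of a gene each probe set reads was not analysed here. MSR1, a macrophage scavenger receptor in the lists, is of the same kind: 5 of its 9 probe sets were called higher and 4 lower.

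**Figure D3:**
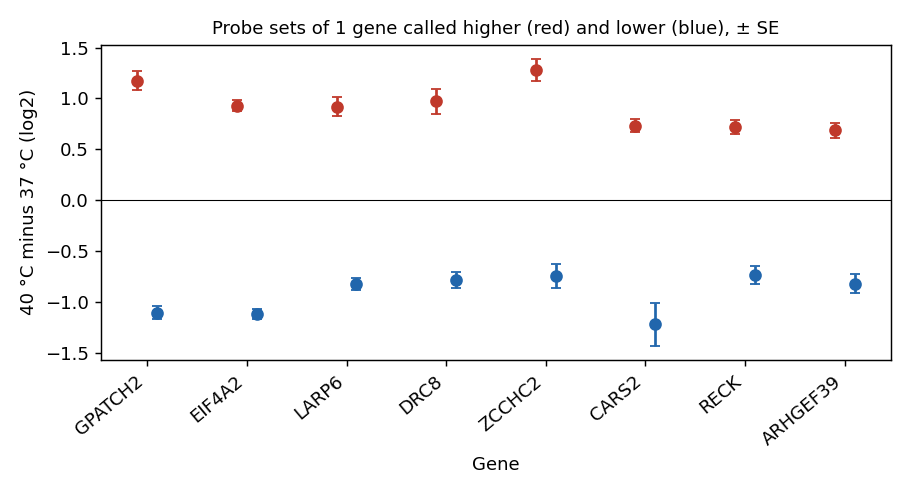
The vertical axis gives the log2 difference between 40 °C and 37 °C, with its SE, for the higher (red) and lower (blue) probe set of each of 8 genes. GPATCH2 and EIF4A2 have the widest pairs of these 8, at 1.17 and −1.11 and at 0.93 and −1.12.

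Replication and mitosis genes differed in the direction of their calls. Of 30 DNA replication genes 21 were higher and none lower, with a median of 0.26. GINS2, of the replicative helicase, read 7.60, 7.73 and 7.59 at 37 °C and 8.32, 8.33 and 8.24 at 40 °C, and CDT1, which loads the helicase, 8.04, 8.13 and 8.02 against 8.63, 8.59 and 8.60. MCM3 (0.60) and MCM2 (0.50), helicase subunits, rose in all 4 probe sets each. Of 16 G1 cyclins and inhibitors of their kinases 6 were higher and 3 lower. CCNE1, the cyclin that starts S phase, read 8.35, 8.36 and 8.33 against 9.08, 9.04 and 9.03 (1.63-fold, SE 0.042, adjusted p = 1.8e-05), while RB1, the brake on that step, fell by 0.54. Of 14 genes of nucleotide supply 8 were higher and 1 lower. Mitosis genes went the other way, with 2 of 22 higher and 7 lower and a median of −0.09: KIF11, the spindle motor, read 9.18, 9.26 and 9.14 against 8.62, 8.43 and 8.55, and CDK1 fell by 0.31. MKI67, a marker of cycling cells, was not called (0.10).

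Histone genes held some of the largest increases. Of 41 tested, 20 were higher and 1 lower, and 4 of the 20 largest increases were histones: H2BC5, at 6.58, 6.83 and 6.90 against 9.47, 9.49 and 9.61 (6.74-fold, SE 0.086, adjusted p = 3e-06), H2AC8, H2AC6 and H1-2. H2AC11 (1.46), H3C4 (1.43), H2BC21 (1.21) and H2BC12 (1.08) rose by over 2-fold. The others were quieter: H2AZ1 (0.07) and H3-3B (−0.05; −0.21 and called with its probe sets averaged), replication-independent variants, were not called, nor was H3C12 (0.00). Histone genes are close copies, so a probe set may read several.

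Transcription factors and growth factor receptors of the myeloid lineage were higher in 6 of 16 and lower in 5. MAF, a factor of mature macrophages, read 8.05, 8.24 and 8.06 at 37 °C and 9.23, 9.16 and 9.22 at 40 °C (2.12-fold, SE 0.061, adjusted p = 1.4e-05). CEBPB rose from 9.03, 9.03 and 9.06 to 10.01, 9.94 and 10.03, and CEBPD by 0.54. Factors of earlier or other myeloid stages fell: GATA2 read 8.61, 8.76 and 8.71 against 8.10, 8.11 and 8.18, and GFI1 fell by 0.53. The shared receptor chain for GM-CSF, CSF2RB, fell by 0.54 and the receptor for M-CSF, CSF1R, rose by 0.31. SPI1, the master factor of the lineage, was not called (0.03). Macrophage markers moved both ways, with 6 of 11 higher and 4 lower. Granule genes, made by myeloid precursors, were lower in 8 of 11 and higher in none, with a median of −0.43: ELANE, neutrophil elastase, read 8.67, 8.67 and 8.42 against 7.79, 7.76 and 7.69, SERPINB1, its inhibitor, fell by 0.75, PRG2 by 0.72 and RNASE2 by 0.67. Of 16 genes named S100 7 were lower and 1 higher. S100P fell from 7.44, 7.66 and 7.43 to 5.88, 6.26 and 5.84 and S100A9, a subunit of calprotectin, from 10.51, 10.51 and 10.54 to 9.52, 9.49 and 9.44, while S100A12 (0.05) was not called.

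**Figure D4:**
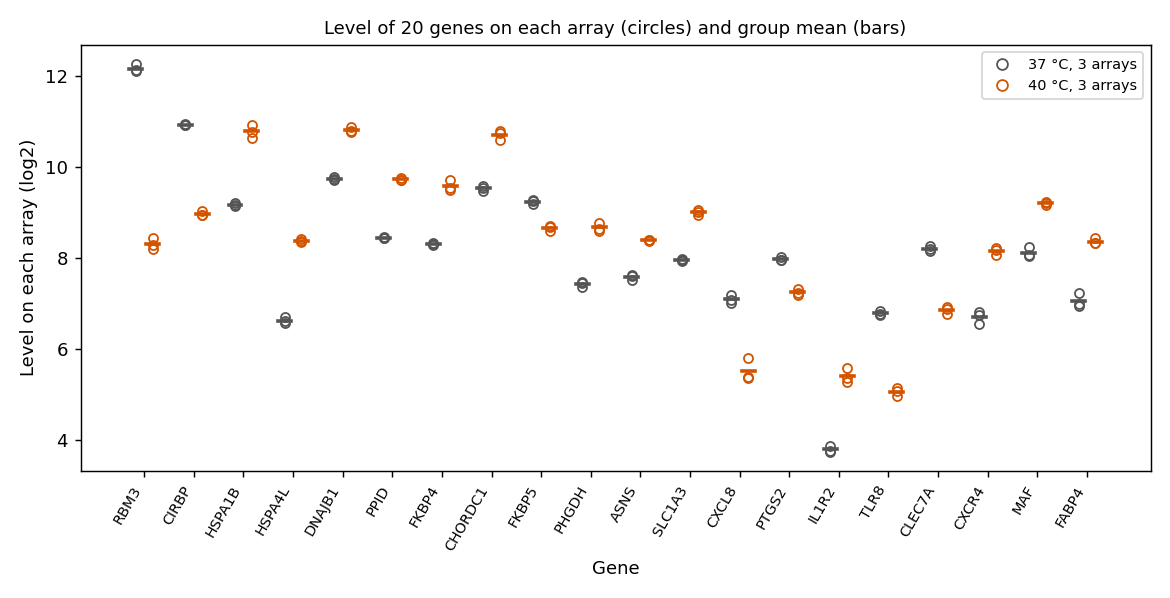
Circles give the log2 level of 20 genes on each of 3 arrays at 37 °C (grey) and 3 at 40 °C (orange), and bars give group means. In each of the 20 genes the 2 groups of circles are apart, from RBM3 with the widest gap to FKBP5, the narrowest difference shown, at −0.58.

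Receptors for microbes and debris changed selectively. Of 17 Toll-like receptors and adaptors 4 were higher and 7 lower. TLR8, which senses single-stranded RNA in endosomes, read 6.78, 6.85 and 6.75 at 37 °C and 4.97, 5.09 and 5.14 at 40 °C (3.31-fold lower, SE 0.058, adjusted p = 3e-06). Its close relative TLR7 fell by 0.64, and TLR1, a partner of TLR2 on the surface, went from 8.44, 8.61 and 8.46 to 7.92, 7.78 and 7.78. TLR2 (0.26) and CD14 (0.24) were higher, the adaptor TIRAP rose by 0.53, and TLR9 (0.02) and MYD88 (0.11) were not called. Among 13 C-type lectins, CLEC7A, the receptor for fungal beta-glucan also called dectin-1, read 8.15, 8.26 and 8.20 against 6.92, 6.77 and 6.88 and was lower in 8 of 9 probe sets; 1 member was higher and 3 lower. Scavenger receptors were higher in 7 of 14 and lower in 2. CD163, which takes up haemoglobin, rose from 5.38, 5.24 and 5.28 to 6.41, 6.19 and 6.20, SCARB1 by 0.48 and CD36 by 0.42. FCGBP, an IgG-binding mucin-like protein, rose from 4.44, 4.70 and 4.93 to 6.62, 6.57 and 6.50, the largest difference in a list of 7 Fc-related genes. Of 17 complement genes 2 were higher and 8 lower: C5AR1, the receptor for the C5a fragment, read 7.74, 7.85 and 7.76 against 8.64, 8.46 and 8.57, while VSIG4, a receptor for C3 fragments, read 8.67, 8.70 and 8.60 against 7.88, 7.72 and 7.77. CD55, which protects cells from complement, fell by 0.68 in all 6 of its probe sets.

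Cytokines and their receptors moved both ways. Of 22 chemokines 3 were higher and 5 lower. CXCL8, which attracts neutrophils, read 7.02, 7.20 and 7.08 at 37 °C and 5.36, 5.39 and 5.80 at 40 °C (3.00-fold lower, SE 0.12, adjusted p = 4.3e-05). CCL5, a chemokine for T cells and monocytes, fell from 12.05, 12.06 and 12.11 to 11.36, 11.45 and 11.42, and CCL3 by 0.40. CCL1 rose from 5.10, 5.30 and 5.26 to 6.32, 6.31 and 6.15. Of 11 chemokine receptors, CXCR4, the receptor for CXCL12, rose from 6.81, 6.75 and 6.56 to 8.19, 8.06 and 8.22 in all 4 of its probe sets, and CX3CR1 fell by 0.48. In the interleukin-1 family, 5 of 17 genes were higher and 5 lower, and the 2 inhibitors of the pathway were the highest. IL1R2, the decoy receptor, read 3.77, 3.75 and 3.88 against 5.37, 5.27 and 5.59. Its 37 °C values lie below the filter's signal, so it passed the filter only through the group in which it is high. IL1RN, the receptor antagonist, read 10.10, 10.14 and 10.08 against 10.77, 10.74 and 10.70. The agonist IL1B fell from 11.17, 11.20 and 11.13 to 10.72, 10.76 and 10.70, the receptor IL1R1 by 0.37 and its accessory chain IL1RAP by 0.56.

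In the TNF superfamily 7 of 30 genes were higher and 7 lower. Among the ligands that fell were TNFSF18, at 7.03, 6.84 and 6.81 against 5.06, 5.06 and 5.24 (3.42-fold lower), TNF, at 6.49, 6.78 and 7.20 against 6.02, 5.99 and 5.96, and TNFSF4 (−0.51). The 37 °C arrays of TNF spread widely (SD 0.36), and its adjusted p was 0.0033. Among receptors TNFRSF1B (0.56), TNFRSF10A (0.55) and TNFRSF10B (0.53) rose, and TNFRSF11B, a soluble decoy for RANKL, fell by 1.06, to below the filter's signal on all 3 arrays at 40 °C. NF-kB subunits RELA (0.02), NFKB1 (0.05) and REL (−0.07) were not called, although RELA was called higher with its probe sets averaged (0.37, adjusted p = 0.0014, limma); NFKBIA, the inhibitor that NF-kB induces, rose by 0.54 in all 3 probe sets and the kinase gene CHUK fell by 0.45. IL6 (0.05) and the signal transducer IL6ST (0.00) were not called, while OSMR, the oncostatin M receptor chain, fell by 0.83 and JAK2 by 0.46. Of 23 prostaglandin and leukotriene genes 2 were higher and 5 lower: PTGS2, which makes the prostaglandin precursor, read 7.95, 8.02 and 7.95 against 7.32, 7.24 and 7.20, ALOX5, the first enzyme of leukotriene synthesis, fell by 0.60, and CYSLTR1, a leukotriene receptor, fell from 10.31, 10.38 and 10.26 to 9.48, 9.51 and 9.47. The prostaglandin E synthase PTGES (−0.06) and the receptors PTGER2 (−0.14) and PTGER4 (0.01) were not called, PTGER2 being called lower without the second 37 °C array (−0.23) and with its probe sets averaged (−0.27). Interferon-stimulated genes were called on both sides alike, 12 of 35 higher and 12 lower. GBP2, a guanylate-binding protein, read 6.80, 6.87 and 6.92 against 5.91, 5.75 and 5.95, HERC6 fell by 0.90 and DDX60 by 0.72, while its neighbour in family HERC5 rose by 0.43 and IFIH1, a sensor of double-stranded RNA, by 0.42. CD86, a costimulatory ligand for T cells, fell by 1.03; CD80 (−0.02), the other ligand of that pair, was not called.

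**Figure D5:**
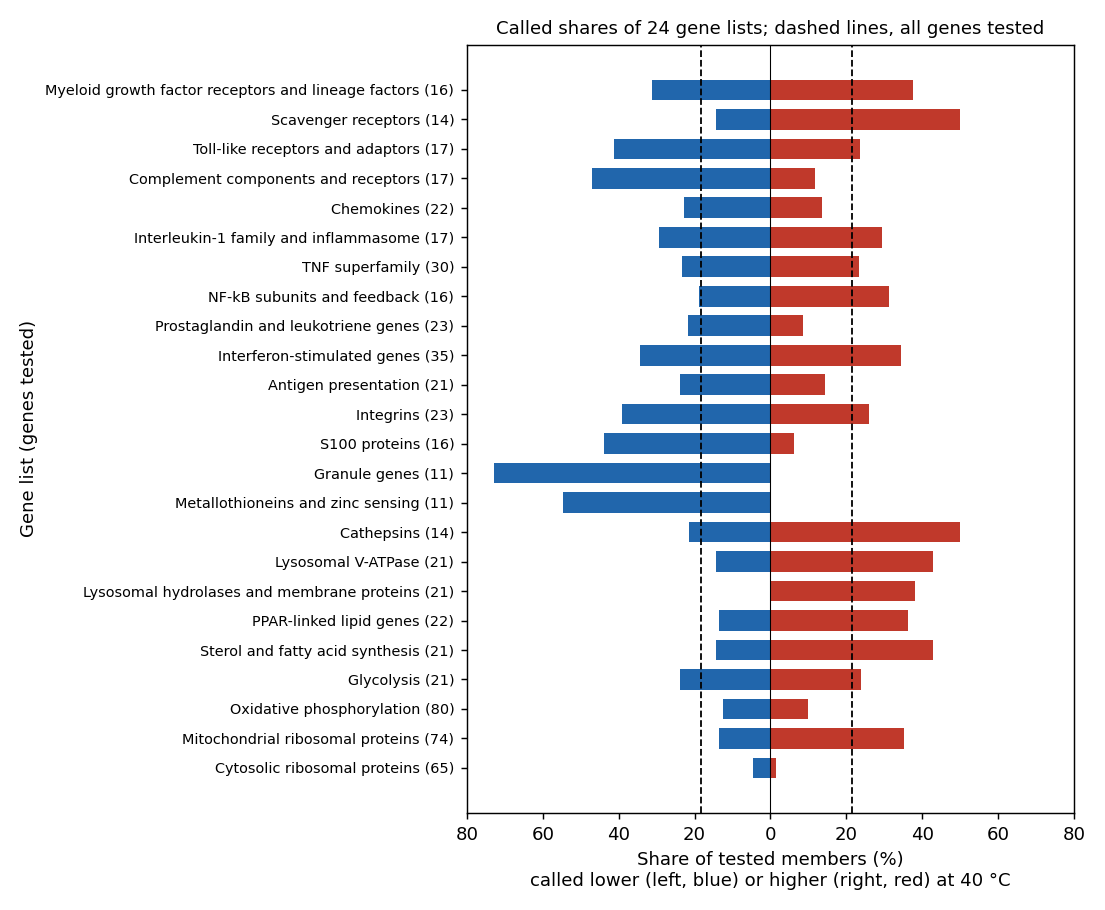
Bars give the share of the tested members of 24 lists that was called higher (red, right) or lower (blue, left) at 40 °C, with the number tested in parentheses; dashed lines mark 21.6% and 18.2%, the shares of all genes. Granule, metallothionein, complement and S100 lists reach far to the left, and cathepsin, scavenger receptor, V-ATPase, sterol and lysosomal lists to the right.

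Adhesion and matrix genes were redistributed. The list taken by the letters ITGA and ITGB holds 23 genes, a few of which encode proteins that bind integrins; 6 were higher and 9 lower. ITGA6, a laminin receptor chain, read 10.88, 10.94 and 10.97 against 10.15, 10.09 and 10.09, ITGA7 fell by 0.85 and ITGA4 by 0.65, while ITGB5, a chain of a vitronectin receptor, rose by 0.62. Of the leukocyte integrins ITGAX fell by 0.62 and ITGAM rose by 0.32. Among 38 metalloproteinase genes and inhibitors, 6 were higher and 8 lower: the gelatinase MMP9 (0.69) and the matrilysin MMP7 (0.65, in all 3 probe sets) rose, and the collagenase MMP1 (−0.76), the aggrecanase ADAMTS4 (−1.14), ADAMTS1 (−0.99) and the inhibitor TIMP3 (−0.69) fell. PLAU, urokinase, read 9.69, 9.68 and 9.68 against 10.68, 10.60 and 10.61 (1.93-fold, SE 0.044, adjusted p = 7.2e-06).

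Lysosomal genes were higher more often than lower. Of 14 cathepsins 7 were higher and 3 lower, with CTSD (0.62), CTSL (0.58) and CTSB (0.53) rising from log2 levels of 9.26 to 9.34, 11.88 to 11.92 and 12.52 to 12.57 at 37 °C, and CTSO falling by 0.69. Of 21 V-ATPase genes 9 were higher and 3 lower. ATP6V0D2, a macrophage and osteoclast subunit of the proton pump, read 7.38, 7.33 and 7.39 against 8.30, 8.27 and 8.26. Hydrolases and membrane proteins had 8 of 21 higher and none lower, among them NPC1, which exports cholesterol, NEU1, a sialidase, at 11.02, 11.03 and 11.05 against 11.73, 11.73 and 11.74, and MITF, a transcription factor of lysosomal genes (0.45). TFEB (0.13), LAMP1 (0.08; 0.18 and called with its probe sets averaged) and LAMP2 (−0.03) were not called. Of 50 RAB GTPases, which route vesicles, 10 were higher and 4 lower. RAB20, of phagosome maturation, rose from 6.61, 6.49 and 6.67 to 8.04, 8.14 and 8.03, RAB7B, of late endosomes, by 0.91 and RAB32, of lysosome-related organelles, by 0.65. RAB5A, of early endosomes, fell by 0.36 in all 4 of its probe sets.

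Lipid genes of the PPAR kind were higher in 8 of 22 and lower in 3. FABP4, a fatty acid carrier, read 6.99, 7.23 and 6.95 at 37 °C and 8.44, 8.33 and 8.33 at 40 °C (2.48-fold, SE 0.079, adjusted p = 1.8e-05), PPARG itself 8.44, 8.55 and 8.48 against 9.34, 9.29 and 9.21, and LPL, lipoprotein lipase, 12.09, 12.05 and 12.07 against 12.80, 12.83 and 12.83. ACADM, an enzyme of fatty acid oxidation, fell by 0.34 in all 7 of its probe sets. Genes tied to LXR, the sterol-sensing receptor, disagreed among themselves: NR1H3, which encodes it, rose by 0.82 and APOE by 0.68, whereas SREBF1 (−0.72) and LPCAT3 (−0.69) fell and ABCG1 (−0.06) was not called. Of 21 sterol and fatty acid synthesis genes 9 were higher and 3 lower, with MSMO1 (0.74) highest and INSIG1 (−0.44) and the sterol carrier STARD4 (−0.69) lowest.

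Sugar and oxygen genes had single large members rather than a common shift. Of 21 glycolysis genes 5 were higher and 5 lower: PDK1, which keeps pyruvate out of mitochondria, read 7.04, 7.22 and 7.16 against 5.88, 5.63 and 6.05 (2.44-fold lower, SE 0.10, adjusted p = 6.5e-05), ALDOC fell by 0.71, and HK2 (0.75) and PFKFB4 (0.80) rose. SLC2A1, the glucose carrier, was not called (−0.05). Of 16 genes of the hypoxia response 5 were higher and 2 lower. The collagen hydroxylases P4HA2 (0.86) and P4HA1 (0.52) and EPAS1 (0.61) were higher. VEGFA, with 10 probe sets, had some called higher (up to 0.54) and some lower (down to −0.51). HIF1A was not called (−0.14), but was called lower without the first 40 °C array (−0.19) and with trend and robust estimation. Metallothioneins, which bind zinc and copper, and their factor MTF1 were lower in 6 of 11 and higher in none: MT2A read 12.01, 12.11 and 11.97 against 11.38, 11.26 and 11.25, and MT1X fell by 0.73 and MT1E by 0.71. These genes too are close copies. In iron handling, TFRC, which imports iron, read 12.37, 12.40 and 12.40 against 11.96, 11.90 and 11.93, and HMOX1, which releases it from haem, 9.23, 9.35 and 9.22 against 9.75, 9.83 and 9.78; the ferritin chain FTL (0.09; 0.14 and called with its probe sets averaged) was not called. Of 15 targets of the oxidant-response factor NRF2 5 were higher and 3 lower, with a median of 0.04; NQO1 rose by 0.66 and PRDX1 by 0.33, and SLC7A11 was the lowest (−0.64).

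Of 22 immediate early genes, which answer stimuli quickly, 4 were higher and 3 lower, so 31.8% were called, against 39.8% of all genes. FOS (0.02), JUNB (0.03) and IER2 (−0.12) were not called. IER2 was called lower without the third 37 °C array (−0.17) and with trend and robust estimation. NR4A3, a nuclear receptor, rose from 6.12, 6.31 and 6.07 to 7.71, 7.60 and 7.55, FOSL2 by 0.86 and JUN by 0.51 in all 4 of its probe sets. EGR1 fell from 10.19, 10.25 and 10.22 to 9.39, 9.28 and 9.19 in all 6 of its probe sets, and EGR3 (−1.13) in 1 of its 4. Among 29 phosphatases and other brakes on MAP kinases, DUSP4 (0.93), DUSP16 (0.85) and DUSP2 (0.76) were the highest of 8 higher, against 5 lower. The clock gene BHLHE41, a repressor, rose from 6.84, 6.81 and 6.73 to 8.20, 8.15 and 8.18, while BMAL1 fell by 0.29 and PER1 (−0.06), PER2 (−0.02) and BHLHE40 (0.03) were not called. Of 11 temperature-gated ion channels, TRPM8, the cold receptor (0.64), and TRPM2, a warmth-sensitive channel (0.47), were higher. TRPM4, a calcium-activated channel, fell from 7.23, 7.33 and 7.07 to 6.39, 6.25 and 6.43. The heat receptor TRPV1 (0.09) and the warmth-sensitive TRPV2 (−0.16) and TRPV4 (−0.08) were not called. TRPV2 was called lower under 5 alternatives, with adjusted p of 0.0072 to 0.0317 (limma): the 50th percentile filter, quantile normalization, trend and robust estimation, array weights and the omission of the first 40 °C array (−0.20). Among 18 genes of microRNA processing AGO2 (0.46) and XPO5, the exporter of precursors (0.40), were higher, AGO4 fell by 0.63, and DICER1 (0.08) and DROSHA (0.03) were not called.

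Of the remaining largest changes all but SEMA3D fall in no list. BBOX1, an enzyme of carnitine synthesis, read 4.30, 4.22 and 3.95 at 37 °C and 6.91, 6.56 and 6.77 at 40 °C, and SYT11, of vesicle traffic, 3.72, 3.96 and 4.11 against 5.94, 5.67 and 5.93. All 37 °C values of both lie below the filter's signal of 4.33, so both genes passed it only through the group in which they are high, and no fold is given for them. DYSF, of membrane repair, rose from 6.81, 6.99 and 6.73 to 8.71, 8.70 and 8.46. MYOZ2 (1.71), KLHL6 (1.67), PEX6, of peroxisome import (1.60), GASK1B (1.59), MMRN2 (1.59), TMEM255A (1.57), GJA1, the gap junction protein connexin 43 (1.51), and PCOLCE2 (1.51) complete that end. For GJA1 only 1 of 3 probe sets was called.

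Among the decreases, GPR183, an oxysterol receptor that guides immune cells, read 9.31, 9.33 and 9.23 at 37 °C and 7.84, 7.64 and 7.85 at 40 °C, and ADGRE2, an adhesion receptor of myeloid cells, 9.13, 9.09 and 9.10 against 7.66, 7.74 and 7.59. LRRK2, a kinase known from Parkinson's disease and abundant in macrophages, fell from 6.18, 6.41 and 6.17 to 4.50, 4.54 and 4.39, and KYAT3, an enzyme of kynurenine metabolism, from 9.03, 9.04 and 9.04 to 7.56, 7.46 and 7.47 (2.91-fold, SE 0.046, adjusted p = 2.8e-06). STEAP4, a metalloreductase (−1.50), BDNF, a neurotrophin (−1.56), SEMA3D, of a list of semaphorins and their receptors with 3 of 26 genes higher and 4 lower (−1.94), RGS13, of G protein signalling (−1.43), NAV1 (−1.45), LONRF2 (−1.90), CRYBG1 (−1.58), C1orf162 (−1.58), MS4A6A (−1.52) and the pseudogene CMAHP (−1.91, in all 5 of its probe sets) fell too. None of these groups of arrays overlapped, which the choice of the largest non-overlapping changes fixes.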

How the data were processed

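The authors deposited log2 expression values of 49395 probe sets; their background correction and normalization were not given in the labels or headers, and the unit was read from the values. The columns of the other 6 arrays were not used. Gene names came from the annotation of the platform: 44988 have 1 symbol, 1832 several, 2473 none, and 102 are controls. Each gene took its probe set of highest mean over the 6 arrays, and genes at or above the 30th percentile were tested with limma 3.58.1 in R 4.3.3 (lmFit, eBayes, two-sided, no block; 4 residual and 3.84 prior degrees of freedom). An exact permutation test of 3 arrays against 3 cannot go below p = 0.1, so none was run. Errors are SDs over arrays or SEs of the fit, and the number of arrays limits the precision. On data simulated from these 13876 genes, 50 genes were changed at each size. Recovery was 38% for changes of 0.25, 78% for 0.5, 98% for 1 and 100% for 2, with 3 false calls among 160. In the real data a far larger share of genes was called, 39.8%. The Benjamini-Hochberg cutoff depends on that share, so these figures do not give the recovery in the real data.

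The lists and genes were chosen with earlier results of these data known. Named genes are the 20 largest increases and decreases without overlap, up to 8 called members of each list by p, list members that were not called, up to 8 genes with probe sets called both ways, and a fixed set; genes printed for a promoter match are also list members. Lists are described by counts and medians, with no test. Alternatives were a replicate block, other filters, averaging of probe sets within a gene, all probe sets singly, quantile normalization, centring, trend and robust eBayes, array weights and leaving out each array. Deviations of arrays numbered 1, 2 and 3 correlated between the groups at −0.14, −0.10 and 0.23. The highest correlations with an array of another number were 0.08, 0.33 and 0.05. With 3 arrays a group, these values cannot decide whether replicate numbers pair the arrays. Promoters of 11226 genes came from RefSeq (GRCh38.p14). Lists, searches and figures were made in Python 3.11.15 with NumPy 2.4.6, pandas 2.3.3 and, for plots, matplotlib 3.10.9.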

Additional observations from a re-analysis of the deposited data

How the results depend on the processing

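The alternatives were listed with earlier results of these data known, and the 3-unit heat shock element was chosen after seeing the data. Of 2996 higher and 2524 lower genes, both counts stayed within 1.5 times under every alternative but 1: testing every probe set gave 6334 higher and 5687 lower, of which 149 and 197 were at least 2-fold, because it counts probe sets and not genes. Averaging a gene's probe sets left 39 genes at least 2-fold higher and 41 at least 2-fold lower. Leaving out each array gave 2447 to 2771 higher, 2099 to 2462 lower, 64 to 72 at least 2-fold higher and 66 to 89 at least 2-fold lower. A block on replicate number gave 2715 higher and 2307 lower genes. All 255 genes called among 301 of those named above kept their call. Whether the numbers pair the arrays is not known. Of 252 such genes, averaging probe sets kept 238 and lost 12 (ARHGEF39, CARS2, HSPA8, IFIH1, IL1R1, LARP6, MRPS25, MSR1, PDGFRB, PFDN4, TIRAP and TNFSF4). Calls gained among the named genes were 5 with probe sets averaged (FTL, H3-3B, LAMP1, PTGER2 and RELA) and 9 with trend and robust estimation (ATF4, FTL, GAPDH, H2AZ1, HIF1A, HSP90B1, IER2, LAMP1 and TRPV2). Averaging reversed EIF4A2 to −0.12 and DRC8 to 0.14, whose probe sets were called both ways. That setting moved the median of 19 of 81 lists by over 1 SD, the 50th percentile filter 12, and leaving out an array 3 to 9. The number of arrays limits the precision, and genes near the filter have the weakest signal.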
